A study of Mus musculus with 18 samples.

Results

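The 10 genes described here encode inflammatory cytokines, cytokine subunits, a chemokine and a cytokine antagonist. They are grouped here as inflammatory cytokines of periodontitis, the inflammatory destruction of the tissue and bone around the teeth. They are *Tnf*, *Lta*, *Ltb*, *Il1a*, *Il1b*, *Il1rn*, *Il6*, *Il23a*, *Il12b* and *Cxcl2*, out of 21924 protein-coding genes. They were chosen by name, but with earlier results of these data known. Every region listed in the deposited methylation tables that touched the body of 1 of these genes, or the 10 kb on either side of it, was taken. That gave 53 of the 411770 regions listed for CD11b+ cells and 77 of the 553467 regions listed for CD4+ cells.

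DNA methylation at CpG dinucleotides is written de novo by DNMT3A and its relative DNMT3B and is copied at replication by DNMT1. It is generally low at promoters and enhancers that are in use and high over most of the remaining genome. R878H is the mouse counterpart of R882H, the human DNMT3A change that recurs in clonal hematopoiesis and acute myeloid leukemia, and it impairs the enzyme. Myeloid cells are a main source of TNF, IL-1, IL-6, IL-12 and IL-23 in inflamed gingiva, whereas lymphotoxins are made mainly by lymphocytes, and CD4+ T cells respond to most of these products.

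The data were obtained by whole-genome bisulfite sequencing (WGBS), which reads the methylated share of cytosines, of CD11b+ cells (myeloid) and CD4+ cells (helper T) from the spleens of *Dnmt3a*+/+ mice (WT) and *Dnmt3a*R878H/+ mice, with 4 mice in each of the 4 groups. In the *Dnmt3a*R878H/+ mice a conditional (floxed) R878H allele was switched on by the Vav1-iCre transgene, which acts throughout the blood-forming system from early development, beside 1 normal allele. The mice were on a C57BL/6 background, the study used young adults of both sexes, and the labels give no treatment. The cells were selected on magnetic columns, the CD4+ cells after the CD11b+ cells had been removed, and the study's methods describe both Cre-positive *Dnmt3a*+/+ mice and Cre-negative mice with the floxed allele as controls without saying which entered the WGBS. The sample titles carry S numbers in a lower and a higher series, whose meaning is not given. In CD4+ cells all mutant samples are in the higher series and all but 1 of the WT samples in the lower. Genotype and series thus nearly coincide in CD4+ cells. In CD11b+ cells only the second entries of repeated replicates, all mutant, are in the higher series. Whether the series has a part in any difference was not tested.

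For each region the tables give the mean methylation of each genotype, but neither values of individual mice nor the depth of reads. No error between mice can therefore be attached to the levels and differences below, no test across mice was possible, and all of them are the authors' group means. The tables do not name the groups either, and the first was read as WT because the study's plots of the same data show WT as the more methylated genotype, so every direction rests on that reading. The number of CpGs given for a region counts cytosines on either strand, and is called the number of CpG cytosines here. A differentially methylated region (DMR) was a region with more than 10 CpG cytosines, a difference of more than 20 percentage points between the genotypes and a deposited q-value below 0.05, which are the study's criteria. Coordinates are those of mm10, counted from 1, and distances are given along the gene from its outermost annotated start, negative upstream.

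As a check of the cell labels, WT promoter methylation of marker genes was compared between the tables. Of 8 myeloid markers, 6 had listed promoter regions in both tables, and all 6 were less methylated in CD11b+ cells. The gap was widest at *Spi1*, at 42.6% in CD11b+ and 76.6% in CD4+ cells. It was narrowest at *Itgam*, which encodes CD11b, at 79.4% and 81.9%. Of 10 T cell markers only 3 were listed in both, of which 2 were lower in CD4+ cells. Of 4 B cell markers 3 were listed in both, of which 2 were lower in CD11b+ cells, for example *Cd79a* at 41.6% in CD11b+ and 66.4% in CD4+ cells. In mutant CD11b+ cells *Cd79a* was at 21.7% and *Cd79b* at 16.2% against 23.4% in WT, *Blk* was at 70.2% against 75.3%, and *Pax5* was higher, at 54.7% against 43.6%. Markers of the other lists also differed between genotypes, in both directions. In CD11b+ cells *Cebpa* was at 2.02% in WT and 32.3% in the mutant, *Bcl11b* at 3.08% and 22.4%, and *Mpo* at 66.2% and 54.2%. In CD4+ cells *Itgam* was at 81.9% in WT and 56.4% in the mutant, *Cd79a* at 66.4% and 42.0%, and *Cd3e* at 27.4% and 38.2%. No NK cell or CD8 T cell marker was listed in both tables. Whether a different cell make-up of the fractions has a part in any difference between genotypes was not tested.

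Methylation around the cytokine genes was lower in *Dnmt3a*R878H/+ cells almost throughout. In CD11b+ cells 52 of the 53 regions (98.1%) had a lower mean in the mutant, beside 93.4% of all listed regions. In CD4+ cells it was 74 of 77 (96.1%), beside 95.5% of all listed regions. The share of cytokine-gene regions with a loss was thus close to that of the genome in CD4+ cells and a few points above it in CD11b+ cells. Over the CD11b+ regions of these genes the median of the differences (mutant minus WT) was -9.12 percentage points, with quartiles at -15.3 and -4.79. Over the CD4+ regions it was -9.58 points, with quartiles at -15.0 and -5.58. All listed regions had medians of -6.55 and -6.85 points. The median level was 75.9% in WT and 62.2% in mutant CD11b+ cells, and 84.1% and 72.6% in CD4+ cells.

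**Figure D1:**
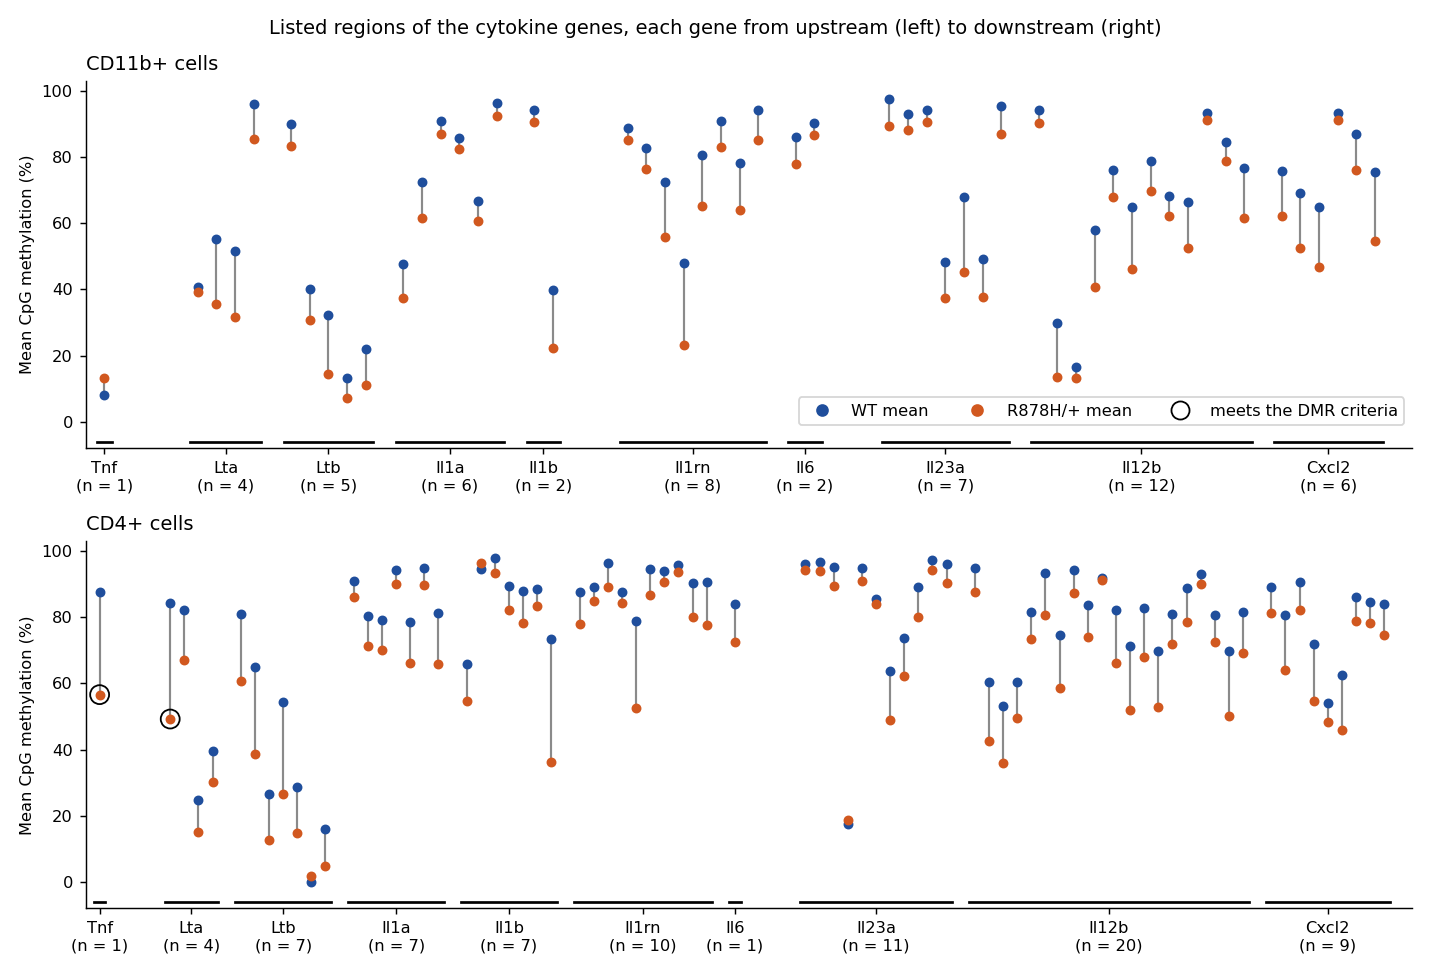
Mean CpG methylation in percent (vertical axis) of every listed region of the 10 genes in WT (blue) and R878H/+ (orange), with CD11b+ cells above and CD4+ cells below; each region is shown once, under the member with the nearest start, and the line joins its 2 group means. Orange lies below blue in 52 of 53 and in 74 of 77 regions, and the 2 circled regions, both in CD4+ cells, met the DMR criteria.

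Few of these losses were large. No cytokine-gene region in CD11b+ cells met the DMR criteria, where 0.576% of all listed regions were hypomethylated DMRs, and 2 of 77 (2.60%) did in CD4+ cells, where the background was 0.665%. Both lie in the *Ltb*-*Tnf*-*Lta* locus. Without the q-value criterion the numbers were 0 in CD11b+ cells (background 3.24%) and 5, or 6.49%, in CD4+ cells (background 3.08%). With so few regions, at 53 and 77, a single region moves these shares by more than 1 point. A q-value below 1 was listed for 4 of the CD4+ regions and for none of the CD11b+ regions, and 98.8% and 98.6% of all q-values in the tables stand at 1.

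How much a region lost went with how methylated it was in WT. The median loss was largest at intermediate levels, among the cytokine genes as among all regions, although both DMRs had WT levels above 80%. For WT levels between 40% and 80%, the median difference of the cytokine-gene regions was -13.9 points for the 24 regions of CD11b+ cells and -17.1 points for the 19 of CD4+ cells. All listed regions of that level had medians of -13.7 and -13.2 points. Between 80% and 100% it was -5.28 points (22 regions) and -7.67 points (51 regions), with -5.65 and -6.11 points for all. Below 40% it was -10.8 and -9.65 points with 7 regions in each cell type, with -6.53 and -6.33 points for all. In CD11b+ cells, regions of the 2 upper levels thus lost about what any region of that level lost. In CD4+ cells 21 of the 51 highly methylated regions lay below the lower quartile of all regions of that level, which is -8.79 points. That level is wide, however. Within it the lower quartile of all CD4+ regions ran from -13.35 points around a WT level of 82.5% to -5.73 points around 97.5%. The count thus depends on where the 51 regions lie within the level, which was not allowed for. Between 40% and 80% it was 5 of 19 in CD4+ cells. In CD11b+ cells it was 3 of 24 there and 6 of 22 between 80% and 100%.

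**Figure D2:**
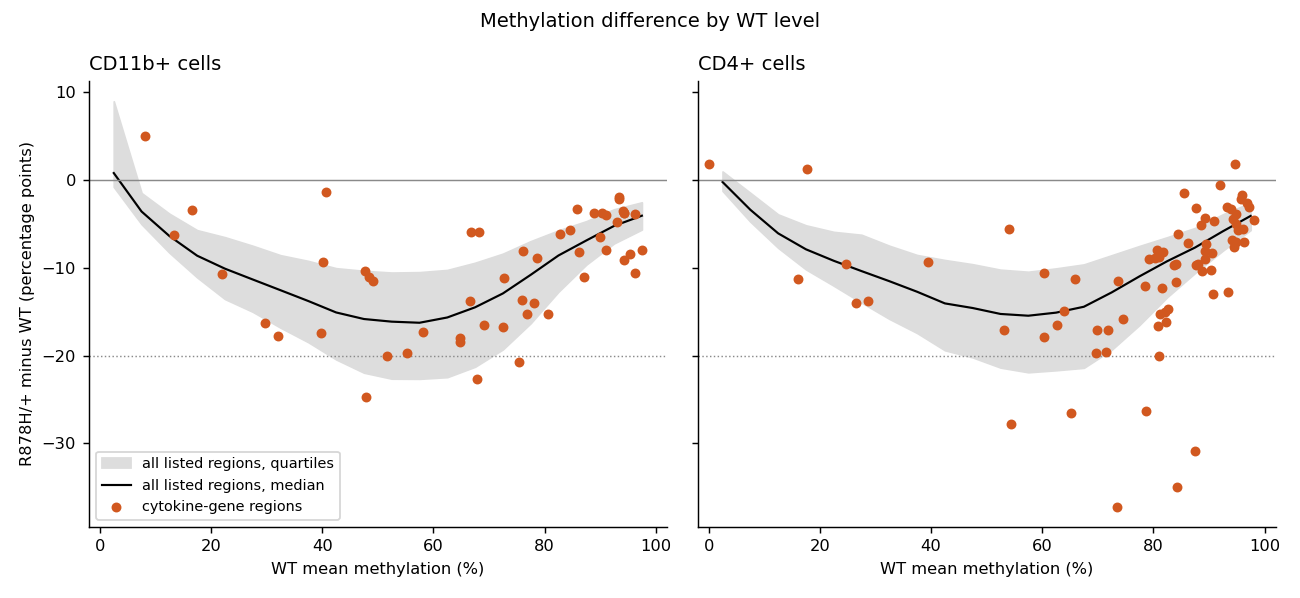
Difference R878H/+ minus WT in percentage points (vertical axis) against the WT mean in percent (horizontal axis) for the cytokine-gene regions (orange points), with the median (line) and quartiles (grey) of all listed regions by WT level; the dotted line marks -20 points. The points follow the dip of the line at intermediate levels, and in CD4+ cells 7 points lie below the dotted line against 3 in CD11b+ cells.

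By position, regions within 1 kb of an annotated start were the least methylated in both cell types. In CD11b+ cells 15 such regions had a median of 51.7% in WT and 35.6% in the mutant, with a median difference of -15.3 points, and the 10 intronic ones a median difference of -5.49 points. In CD4+ cells 13 regions near starts went from a median of 73.7% to 52.5%, with a median difference of -10.6 points, and 37 intergenic ones had a median difference of -10.3 points. Annotated repeats made up most of the length of 0 CD11b+ regions and of 4 CD4+ regions (5.19%), where the shares over all listed regions were 7.32% and 8.27%.

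The CpGs closest to several of the starts are in no listed region, so that nothing can be said of them here. The counts here are for each gene's outermost start and go by the plus-strand cytosine of a dinucleotide. Of the 39 CpG dinucleotides within 1 kb of the *Tnf* start, of the 21 at *Il6* and of the 50 at *Cxcl2*, none lay in a listed region in either cell type. At *Cxcl2*, however, a CD11b+ region begins 989 bp past the start, at the edge of that span. In CD11b+ cells none was listed for *Il1a* (14 dinucleotides), *Il1b* (15) and *Il1rn* (9) either, where CD4+ cells had listed regions over 8, 7 and 7 of them. *Il1rn* also has inner starts, and CD11b+ regions were listed there. Listed regions covered between 5.13% (*Il6*, CD4+ cells) and 50.9% (*Il12b*, CD4+ cells) of the CpG dinucleotides in a gene's window.

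*Tnf*, *Lta* and *Ltb* lie next to each other on chromosome 17 within the major histocompatibility complex. TNF is the inflammatory cytokine that drives endothelial activation, neutrophil recruitment and osteoclast formation, lymphotoxin alpha is its closest relative, and lymphotoxin beta anchors lymphotoxin alpha to the cell membrane. Because they are so close, their windows share regions, so that the *Tnf* window held 8 CD11b+ and 8 CD4+ regions, the *Lta* window 8 and 9, and the *Ltb* window 9 of each.

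The *Tnf* body, chr17:35199381-35202007 on the minus strand, held 1 region in each cell type, and they do not overlap. In CD4+ cells the region at chr17:35199258-35199899 covers 519 bp of the 3′ untranslated part of the last exon and 123 bp past the gene's end. It has 18 CpG cytosines in 13 dinucleotides, 11 of which lie in the exon and 2 past the gene's end. Its mean was 87.5% in WT and 56.6% in *Dnmt3a*R878H/+ CD4+ cells, a difference of -30.9 points with a q-value of 4.7e-04 in the deposited table. No CD11b+ region is listed there, so the 3′ end of *Tnf* cannot be compared between the cell types. In CD11b+ cells the listed region was chr17:35200399-35200702, 1305 to 1608 bp into the gene in coding exon and intron, and it was the only cytokine-gene region of that cell type with a higher mean in the mutant, 8.18% in WT and 13.1% in the mutant. That region has 10 CpG cytosines and a q-value of 1, and its difference of 4.92 points is small beside the losses of its neighbours.

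**Figure D3:**
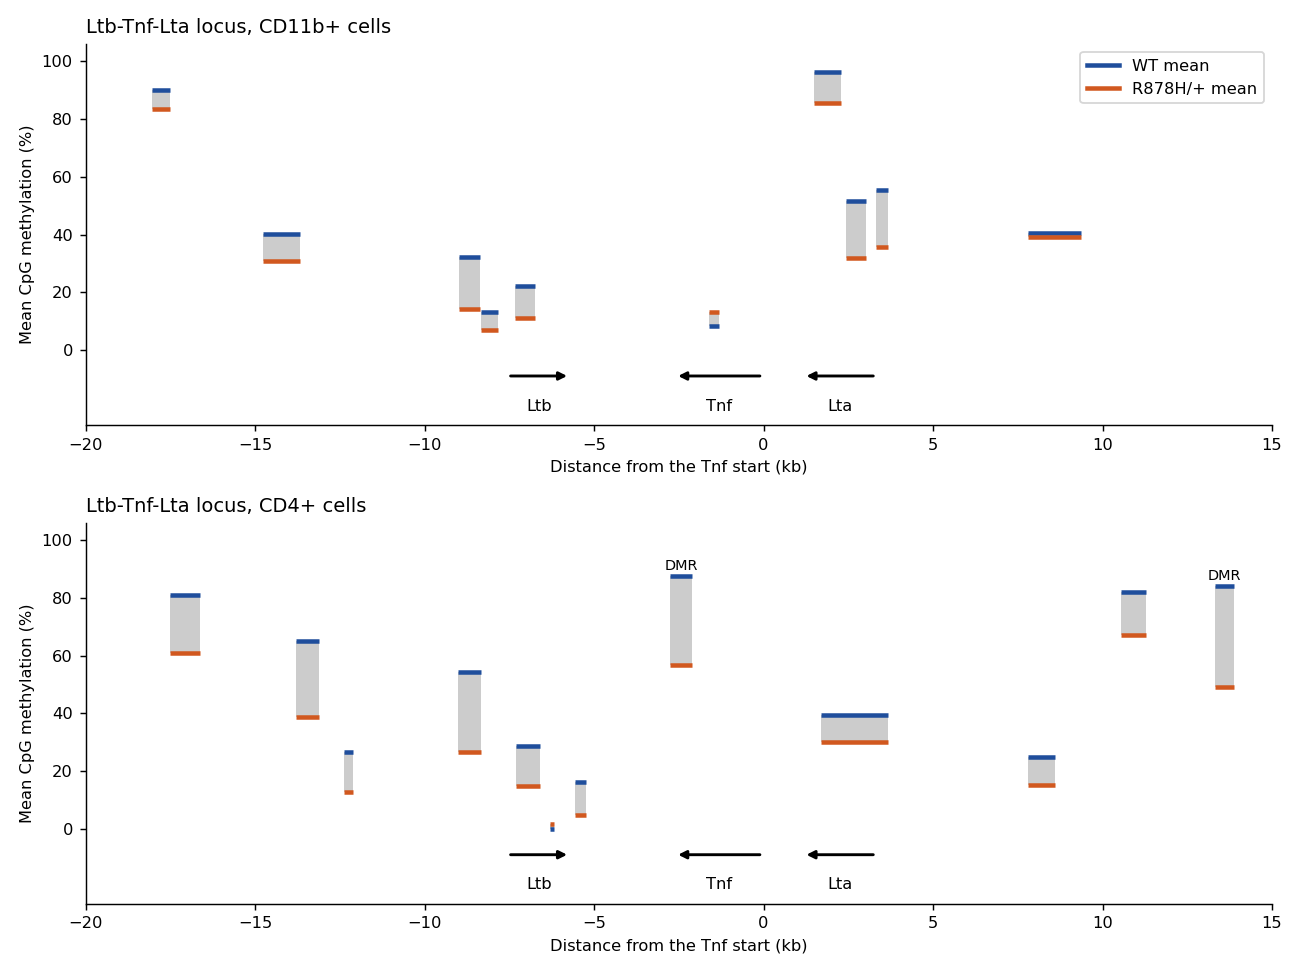
Mean CpG methylation in percent (vertical axis) of the listed regions of the Ltb-Tnf-Lta locus in WT (blue) and R878H/+ (orange) against the distance from the Tnf start in kb along the chromosome (horizontal axis), with CD11b+ cells above and CD4+ cells below; bars span a region, the grey fill is the difference and arrows run from each gene's start to its end. The marked DMRs lie at the 3′ end of Tnf (87.5% against 56.6%) and far upstream of Lta (84.2% against 49.2%), and the CD11b+ panel has no listed region at either place.

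The other DMR, chr17:35215320-35215880, is intergenic and lies at -10529 to -9969 bp from the *Lta* start, so that only 32 bp of its 561 bp fall inside the 10 kb window. The nearest annotated protein-coding start is that of *Gm16181*, at 4954 bp. It has 16 CpG cytosines, and its mean went from 84.2% to 49.2%, a difference of -35.0 points with a q-value of 7.5e-04 in the deposited table. This was the largest loss of any member region with more than 10 CpG cytosines.

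At the *Lta* start itself both cell types had listed regions. In CD11b+ cells the region over the start, chr17:35205332-35205676, went from 55.3% to 35.6%, and the next one, chr17:35204450-35205019 in the first exons and introns, from 51.7% to 31.7%. The former has 13 CpG cytosines and a difference of -19.7 points, and the latter has 10 and a difference equal to the threshold of 20 points, so that both fell just short of the criteria, and both have a q-value of 1. In CD4+ cells a single region of 1987 bp, chr17:35203690-35205676, spans both and most of the gene, at 39.5% in WT and 30.1% in the mutant. The 300 bp directly upstream of the *Lta* start, all within the first CD11b+ region, hold 11 CpG dinucleotides. Both cell types had listed regions near a start at *Ltb*, *Il12b*, *Il23a* and the inner *Il1rn* starts too. The *Lta* stretch is shown as a promoter sequence at which both CD11b+ and CD4+ cells had a listed region (capitals, CpG; mm10, minus strand, chr17:35205352-35205651):
Lta start: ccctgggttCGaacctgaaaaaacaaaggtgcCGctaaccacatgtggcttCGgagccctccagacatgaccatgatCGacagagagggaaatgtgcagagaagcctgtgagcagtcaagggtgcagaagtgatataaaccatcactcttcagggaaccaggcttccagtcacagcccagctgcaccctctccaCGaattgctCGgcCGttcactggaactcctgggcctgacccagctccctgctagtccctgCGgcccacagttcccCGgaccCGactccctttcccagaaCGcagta

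In CD11b+ cells the regions near the *Ltb* start were less methylated than those near the *Lta* start. The region at -774 to -258 bp, chr17:35193665-35194181, was at 13.3% in WT and 7.06% in mutant CD11b+ cells. The region before it, at chr17:35193037-35193650 in CD11b+ cells, went from 32.1% to 14.3%, and its counterpart in CD4+ cells, chr17:35192999-35193665, went from 54.4% to 26.6%. The latter difference of -27.8 points over 17 CpG cytosines is beyond the size asked of a DMR, but its q-value is 1. The regions just inside the gene went from 22.0% to 11.2% at chr17:35194665-35195274 in CD11b+ cells and from 28.6% to 14.8% at chr17:35194699-35195417 in CD4+ cells. A short region in the *Ltb* coding sequence was unmethylated in WT CD4+ cells (0%) and at 1.73% in the mutant. The stretch of the upstream region that holds the most CpG dinucleotides has 5 of them in 300 bp, and is shown as the sequence with the largest loss at *Ltb* in both cell types (capitals, CpG; mm10, plus strand, chr17:35193351-35193650):
Ltb upstream: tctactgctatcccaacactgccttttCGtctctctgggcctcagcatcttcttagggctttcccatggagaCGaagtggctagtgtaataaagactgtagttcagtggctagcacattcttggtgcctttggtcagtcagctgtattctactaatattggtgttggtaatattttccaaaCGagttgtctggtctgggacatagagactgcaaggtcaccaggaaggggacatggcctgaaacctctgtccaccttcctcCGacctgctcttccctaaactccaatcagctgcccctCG

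Further upstream, the *Ltb* window reaches *Lst1*, a leukocyte transcript gene. The CD4+ region over an *Lst1* start, chr17:35188222-35188883, went from 65.1% to 38.6%, and the one at the end of that gene, chr17:35184501-35185375, from 81.0% to 60.8%. These are differences of -26.5 and -20.1 points at a neighbouring gene, with a q-value of 1 each. The CD11b+ regions that touch them differed by -9.40 and -6.53 points.

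*Il1a* and *Il1b* encode the 2 agonists of the IL-1 receptor, which induce chemokines, prostaglandins and bone resorption, and *Il1rn* encodes the antagonist that occupies the same receptor without signalling. All 3 lie on chromosome 2. At the *Il1b* body, chr2:129364570-129371139 on the minus strand, differences were small. The CD4+ region over the start, chr2:129371119-129371633, went from 89.4% to 82.1%, and CD11b+ cells had no listed region there. Coding exons and introns went from 88.0% to 78.4% at chr2:129367326-129368241 in CD4+ cells and from 94.4% to 90.6% at chr2:129366794-129367326 in CD11b+ cells.

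The largest loss of any cytokine-gene region lay past the 3′ end of *Il1b*. The intergenic region chr2:129360159-129360460, 10679 to 10980 bp from the start, went from 73.4% in WT to 36.2% in mutant CD4+ cells, a difference of -37.2 points. It has 10 CpG cytosines, 1 too few for a DMR, and a q-value of 0.51. The CD11b+ region there, chr2:129360159-129360564, was already at 39.7% in WT and went to 22.3% in the mutant, a difference of -17.4 points. The WT level was thus 33.7 points higher in CD4+ than in CD11b+ cells, and the mutant CD4+ cells stood at 36.2%, below the 39.7% of WT CD11b+ cells. The sequence shared by the 2 regions is shown for that reason, with 7 CpG dinucleotides in 300 bp (capitals, CpG; mm10, minus strand, chr2:129360159-129360458):
Il1b distal: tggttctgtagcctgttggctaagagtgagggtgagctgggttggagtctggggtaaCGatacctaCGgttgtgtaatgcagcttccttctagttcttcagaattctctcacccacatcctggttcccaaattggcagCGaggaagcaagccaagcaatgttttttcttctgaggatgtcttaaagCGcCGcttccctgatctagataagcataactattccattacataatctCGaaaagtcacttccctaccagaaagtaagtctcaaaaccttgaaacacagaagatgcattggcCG

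**Figure D4:**
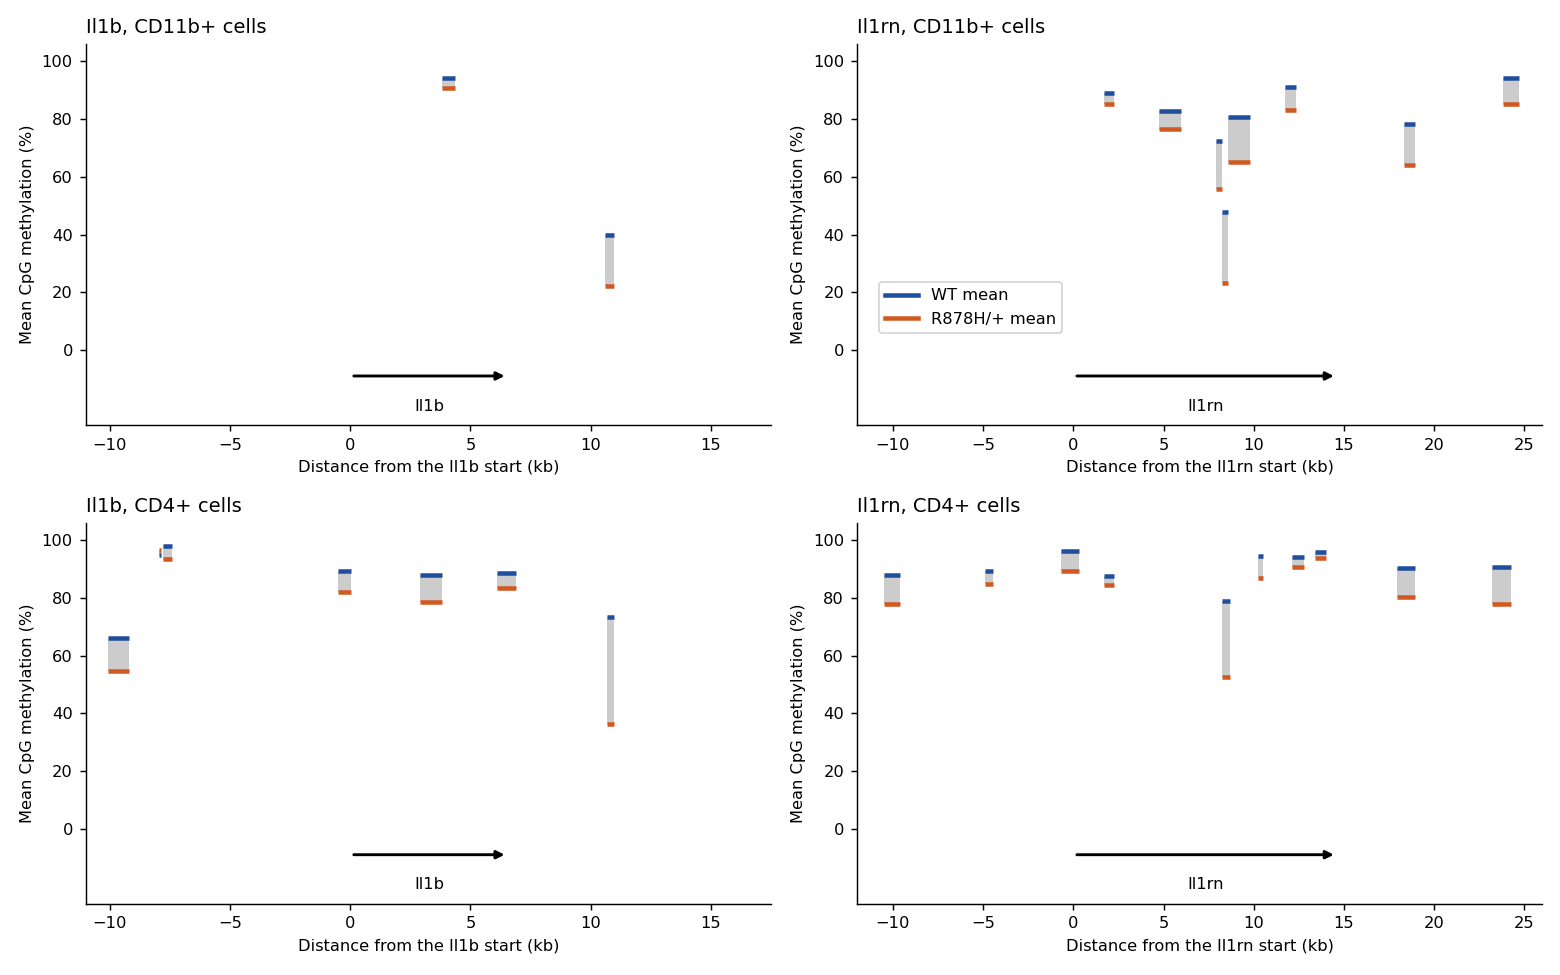
Mean CpG methylation in percent (vertical axis) of the listed regions of Il1b (left) and Il1rn (right) in WT (blue) and R878H/+ (orange) against the distance from each gene's start in kb along the gene (horizontal axis), with CD11b+ cells above and CD4+ cells below; the arrow runs over the gene. The widest grey fills are past the end of Il1b (73.4% against 36.2% in CD4+ cells) and at the internal starts of Il1rn (78.8% against 52.5% in CD4+ and 47.9% against 23.2% in CD11b+ cells), between neighbours that are more methylated.

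*Il1rn* lost most at its internal starts. The gene, chr2:24336853-24351494 on the plus strand, has an outer pair of starts and an inner pair that lie 8435 and 8457 bp downstream. The region at the inner starts, chr2:24345121-24345421, went from 47.9% to 23.2% in CD11b+ cells, and at -24.7 points this was the largest loss of any cytokine-gene region in that cell type. It covers first exon, coding sequence and intron and has 10 CpG cytosines. In CD4+ cells the matching region, chr2:24345094-24345532 with 16 CpG cytosines, went from 78.8% to 52.5%, a difference of -26.3 points with a q-value of 0.11. The loss was therefore of like size from WT levels 30.9 points apart. On either side, the CD11b+ regions chr2:24344775-24345120 and chr2:24345449-24346658 went from 72.5% to 55.8% and from 80.6% to 65.3%. At the outer starts the CD4+ region chr2:24336164-24337167 went only from 96.3% to 89.2%. The 167 bp that end at the first of the inner starts hold 2 CpG dinucleotides, both within the last bases before it (capitals, CpG; mm10, plus strand, chr2:24345121-24345287):
Il1rn internal: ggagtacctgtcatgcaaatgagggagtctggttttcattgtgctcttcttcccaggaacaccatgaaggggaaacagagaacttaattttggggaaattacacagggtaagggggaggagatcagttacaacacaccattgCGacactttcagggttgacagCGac

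*Il1a*, chr2:129299610-129309972 on the minus strand, had the smallest median loss in CD11b+ cells among the 10 genes, -4.97 points over 6 regions. Its largest loss there was from 72.6% to 61.4%, at the intergenic region chr2:129314664-129315212 upstream of the gene. In CD4+ cells the region over the start, chr2:129309904-129310236, went from 79.2% to 70.2%, and the largest loss, from 81.3% to 66.0%, was at chr2:129295876-129296516, which lies in the neighbouring gene *Ckap2l*.

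*Il6* encodes the cytokine that, with TGF-beta, starts Th17 differentiation. It had the fewest listed regions, 2 in CD11b+ and 1 in CD4+ cells. Over the last coding part and the 3′ untranslated part both cell types had nearly the same region, chr5:30018968-30019644 in CD11b+ cells, which went from 86.2% to 78.0%, and from 84.1% to 72.5% in CD4+ cells. The other CD11b+ region, chr5:30027614-30027932, is intergenic and went from 90.4% to 86.6%. The levels at *Il6* describe its 3′ side alone, as no CpG near its start was covered.

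*Il23a* and *Il12b* encode the p19 and p40 subunits of IL-23, which maintains Th17 cells, and p40 is also part of IL-12, which drives Th1 cells. At *Il23a*, chr10:128296139-128298752 on the minus strand, the largest loss in each cell type was upstream of the start. The CD11b+ region chr10:128298906-128299130 went from 67.9% to 45.2%, a difference of -22.7 points over 10 CpG cytosines. It lies at -378 to -154 bp from the outermost start and 822 bp from that of the coding transcript, which is 668 bp further downstream. Next to it, chr10:128298084-128298827 went from 49.1% to 37.6% in CD11b+ cells, and chr10:128298468-128298946 from 73.7% to 62.1% in CD4+ cells. Upstream of these, chr10:128299819-128300082 went from 48.4% to 37.4% in CD11b+ cells and chr10:128299643-128300082 from 63.9% to 48.9% in CD4+ cells. Near the gene's 3′ end, chr10:128296525-128296837 went from 89.2% to 80.2% in CD4+ cells, and the upstream region chr10:128300222-128300469 only from 85.6% to 84.1%. Regions farther off in *Pan2* and *Stat2* were at 93.1% or more in WT, with differences no larger than -8.40 points, except for the *Pan2* start in CD4+ cells at 17.6% in WT and 18.9% in the mutant. The upstream CD11b+ region is shown whole, with 7 CpG dinucleotides in 225 bp (capitals, CpG; mm10, minus strand, chr10:128298906-128299130):
Il23a upstream: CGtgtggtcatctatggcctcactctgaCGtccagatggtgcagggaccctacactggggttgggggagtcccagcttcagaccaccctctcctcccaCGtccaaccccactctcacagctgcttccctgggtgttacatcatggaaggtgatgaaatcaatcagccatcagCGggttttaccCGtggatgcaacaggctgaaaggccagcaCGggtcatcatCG

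*Il12b*, chr11:44400063-44414033 on the plus strand, had the most listed regions, 12 in CD11b+ and 20 in CD4+ cells, and all of them had a lower mean in the mutant. A region at -1454 to -1053 bp, chr11:44398609-44399010, went from 29.8% to 13.5% in CD11b+ cells, and the same region offset by 1 base from 53.2% to 36.0% in CD4+ cells. The 2 differences, -16.2 and -17.1 points, are near each other, whereas the WT levels are 23.4 points apart. Nearer the start, chr11:44399472-44399865 went from 58.1% to 40.8% in CD11b+ cells, whereas the intervening chr11:44399022-44399404 was low in both genotypes at 16.6% and 13.1%. In CD4+ cells chr11:44399340-44399746 went from 60.3% to 49.7%. The largest losses of the gene were at chr11:44405043-44406063 in an intron in CD11b+ cells, from 64.8% to 46.3%, and at chr11:44422985-44423613 past the gene in CD4+ cells, by -19.7 points from 69.7%.

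*Cxcl2* encodes a chemokine that draws neutrophils through CXCR2. The gene, chr5:90903871-90905938 on the plus strand, had the largest median loss of the 10 genes in CD11b+ cells, -15.1 points over 6 regions, and -8.35 points over 9 regions in CD4+ cells. The median WT level of the 6 was 75.7%, and all listed CD11b+ regions between 40% and 80% had a median difference of -13.7 points. The CD11b+ regions farthest upstream, with differences of -13.7 and -16.6 points, lie nearer the start of the neighbouring *Cxcl1*. In CD11b+ cells the intergenic region 4415 to 5024 bp from the start, chr5:90908286-90908895, went from 75.4% to 54.7%, a difference of -20.8 points over 10 CpG cytosines. The longer upstream region chr5:90899945-90901071, with 29 CpG cytosines, went from 64.9% to 46.9%. In CD4+ cells the upstream regions chr5:90899700-90900053 and chr5:90900514-90900963 went from 71.9% to 54.8% and from 62.6% to 46.1%, while chr5:90900079-90900502 between them went only from 54.0% to 48.4%. In CD11b+ cells the gene itself was more methylated and lost less, from 87.1% to 76.0% at chr5:90905089-90905997. In CD4+ cells its region at chr5:90905278-90905997 went from 84.5% to 78.3%. That level lay within the WT range of the window's CD4+ regions, from 54.0% to 90.6%.

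Listed regions of the 2 cell types often overlapped, though some pairs shared only 1 bp. Among CD11b+ regions 45 (84.9%) overlapped a CD4+ region by at least 1 bp, and of the CD4+ regions 44 (57.1%) overlapped a CD11b+ region, in 52 pairs. These shares were not determined over all listed regions, so the overlap cannot be read as a trait of these genes. The mean was lower in the mutant in both cell types in all 52 pairs, where 93.4% and 95.5% of all listed regions had a lower mean. When the 2 regions had to cover at least 50% of each other, 19 pairs were left. WT CD4+ cells were the more methylated in 13 of these 19, and the median of the difference (CD4+ minus CD11b+) over the 19 was 5.59 points. Neither figure was determined over all listed regions. The widest gaps in WT among the 19 were those described at *Il1b* (33.7 points), *Il1rn* (30.9), *Il12b* (23.4) and *Ltb* (22.3), where WT CD11b+ cells had the lower level each time.

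The 5 sequences shown above were searched on both strands for motifs of factors that act on inflammatory genes. TGANTCA (AP-1), TTGCNNAA (C/EBP) and AGGAAGT (the ETS type bound by PU.1) matched none of the 5. The NF-kB motif matched 1, the stretch upstream of *Il23a*, and 3.55% of the 553445 listed CD4+ regions searched hold that motif in their middle 225 bp. Over the middle 300 bp, 9.82% of those regions hold the AP-1 motif, 12.9% the C/EBP motif, 8.31% the ETS motif and 4.74% the NF-kB motif. A match is a run of letters and does not show binding.

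Other genes of the same pathways held DMRs in both cell types. These genes came from lists drawn up by function, but with earlier results of these data known. The lists hold many more regions than the cytokine genes. At a background of 0.576%, the count of 0 among 53 cytokine-gene regions in CD11b+ cells is not a result about those genes. Among the windows of 15 receptor genes, 8 of 262 regions in CD11b+ cells (3.05%) and 8 of 344 in CD4+ cells (2.33%) were hypomethylated DMRs, where the backgrounds were 0.576% and 0.665%. *Cxcr2*, the receptor of CXCL2, had one in an intron in CD11b+ cells (31.8% to 9.12%), and so did *Tnfrsf1a*, the main TNF receptor (34.6% to 11.4%). *Ltbr*, the receptor of the lymphotoxin alpha-beta complex, had one near its start in both cell types (52.9% to 22.8% in CD11b+ and 81.0% to 40.8% in CD4+ cells). In CD4+ cells a region of *Il12rb1*, the receptor chain shared by IL-12 and IL-23, went from 80.1% to 33.2%, and one of *Il6st*, the signalling chain of the IL-6 receptor, from 72.0% to 32.5%. Many of the receptor DMRs lie in the window but outside the receptor gene. Those counted for *Il1r1* lie at the start of *Il1rl2*. Of those counted for *Tnfrsf1a* and *Ltbr*, several lie in *Scnn1a* or *Plekhg6* or between genes. *Tnfrsf1a* and *Ltbr* are also close to each other on chromosome 6. A single locus thus gave a large part of the receptor DMRs in both cell types, and the shares are not spread evenly over the receptors.

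Among 20 genes of signalling and cytokine processing, 7 of 365 regions in CD11b+ cells (1.92%) and 9 of 500 in CD4+ cells (1.80%) were hypomethylated DMRs. In CD11b+ cells 4 of the 7 lie in *Fbxl8*, next to *Tradd*, an adaptor of the TNF receptor for which they were counted. Another lies in *Tradd* itself (72.4% to 30.6%), and the rest included *Irak3*, an inhibitor of IL-1 receptor signalling (58.6% to 22.8%). In CD4+ cells they included *Tnfaip3*, an inhibitor of NF-kB signalling (72.4% to 43.5%), *Stat3*, the transducer of IL-6 and IL-23 (85.7% to 48.2%), and *Jak2* (61.4% to 20.7%). *Tradd* itself held a DMR in these cells too (86.4% to 48.4%), and another counted for it lies in *Fbxl8*. Among 20 further cytokine genes of the same families, 1 of 180 regions in CD11b+ cells (0.556%), in *Ebi3*, and 1 of 243 in CD4+ cells (0.412%), counted for *Il27* but lying in *Apobr*, were DMRs, which is near the background. None of the 3 lists held a hypermethylated DMR in either cell type. These counts were not compared with each other by a test.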

How the data were processed

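WGBS was performed by the study on spleen CD11b+ and CD4+ cells of WT and *Dnmt3a*R878H/+ mice, 4 of each in both cell types (18 entries, since replicates 3 and 4 of the mutant CD11b+ cells have a pair of entries each). Reads were mapped to mm10 with BISCUIT and regions were called with metilene by the authors; versions, settings and a coverage minimum are not given in the sources used here. The deposited tables hold, per region, a q-value and 2 p-values, group means in percent, their difference in percentage points and the number of CpG cytosines, and neither a value per sample nor a depth, so precision cannot be stated. The deposited q-value is the Kolmogorov-Smirnov p-value times a nearly constant factor, up to 1, and served only as a criterion.

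Listed regions overlapping a member gene body extended by 10 kb were selected with GENCODE M21 protein-coding genes, using python 3.11.15, pandas 2.3.3, numpy 2.4.6 and scipy 1.17.1. A promoter was taken as 1 kb on both sides of a start. Sequences were read from GRCm38.p6 (mm10). For 1 marker gene and 1 sequence the result is not reported here. The selection was tested on simulated data. The named regions were the DMRs, those nearest a start and the largest loss of each member; any other was named after its values were seen. The members and lists were chosen with earlier results of these data known. Alternatives were gene bodies alone, windows of 5 or 20 kb, regions mostly inside the window, other thresholds, weighted medians and a reciprocal overlap of 50%, and, added after seeing the data, counting dinucleotides.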

Additional observations from a re-analysis of the deposited data

How the results depend on the processing

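No paired analysis was possible because the tables hold group means alone, and for the same reason no mouse could be left out in turn. The median difference over the cytokine-gene regions stayed negative under all 14 alternatives, from -10.8 to -7.99 points in CD11b+ cells and from -10.2 to -8.53 points in CD4+ cells. The alternatives largely reuse the same regions, and 93.4% and 95.5% of all listed regions had a lower mean. A negative median was therefore likely in advance. The 95% interval over regions was -11.5 to -6.25 and -11.3 to -7.95 points. It takes neighbouring regions as independent, which they are not, and does not cover variation between mice. The medians of single genes were negative in 59 of 60 alternatives. The exception was *Tnf* in CD11b+ cells, which with the gene body alone rests on 1 region at 4.92. The number of DMRs in CD11b+ cells was 0 under every alternative. In CD4+ cells it was 1 with gene bodies alone, with a 5 kb window, or when most of the region had to lie in the window, since the DMR upstream of *Lta* reaches only 32 bp into the window. It was 5 without the q-value threshold and 0 with more than 20 CpG cytosines, and 2 when more than 10 CpG dinucleotides were asked for. The number of CD11b+ regions overlapping a CD4+ region was 45, and 19 with a reciprocal overlap of 50%. The tables give no depth per region, so no level has a counting error. CpGs outside listed regions were not analysed here, and region borders differ between the cell types, so that a difference in level between overlapping regions can include a difference in the CpGs covered.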
